A study of Caenorhabditis elegans with 2 samples.

Results

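The Sm protein genes are the 7 Caenorhabditis elegans genes snr-1 to snr-7, taken as a named list from 19973 annotated protein-coding genes on the nuclear chromosomes. They were described in ChIP-seq of the transcription factor UNC-86, a POU homeodomain protein that specifies several classes of neuron. The animals were whole hermaphrodite late embryos of strain OP476, carrying unc-119(tm4063) on chromosome III and the integrated transgene wgIs476. Embryos were obtained by bleaching and collected 3.5 hours later, and UNC-86 with a C-terminal GFP-FLAG tag was precipitated with an antibody to GFP. Both samples were biological replicates of this 1 group, so no comparison between conditions was possible. The chromatin came from all cells of the animal, so the cells behind a peak are not known, and the promoter that drives the transgene is not stated in the labels. The deposited peak lists give a summit, the position of the highest signal, for each peak, and a summit was assigned to a gene when at most 2 kb separated it from any of the gene's transcript starts. All 7 genes were found in the annotation, and 4 lists were searched.

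Sm proteins are small proteins that form a ring around the U1, U2, U4 and U5 small nuclear RNAs (snRNAs) and make up the core of the spliceosomal snRNPs. The ring is built from 3 subcomplexes, SmB with SmD3, SmD1 with SmD2, and SmE with SmF and SmG. The survival motor neuron (SMN) complex loads them onto the RNA. In C. elegans they also serve the spliced leader RNPs that trans-splice many messenger RNAs. Splicing is needed in all cells, and UNC-86 is known for its work in neurons.

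The peaks at the Sm genes differed from gene to gene. The snr-1 promoter region held a peak that ranked among the strongest of the experiment in both replicates. That of snr-2 held a weaker peak that passed the authors' reproducibility threshold. Below that threshold, snr-4 had a peak, and snr-6 had a weaker entry whose q value was not under 0.05 in any list. The genes snr-5 and snr-7 had entries of low signal, and snr-3 had none within 2 kb. The list of peaks past the irreproducible discovery rate (IDR) threshold, called the IDR list here, contained a summit within 2 kb of 2 of the 7 Sm genes, against 5.65% of all protein-coding genes. The list made from both replicates together, called pooled here, had one for 5 of the 7, against 40.7% of all genes. In the separate lists a summit was found for 6 of the 7 in replicate 1, against 50.7% of all genes, and for 5 of the 7 in replicate 2, against 52.6%. The pooled and replicate lists hold peaks together with background regions, so the presence of an entry there says little without its rank.

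**Figure D1:**
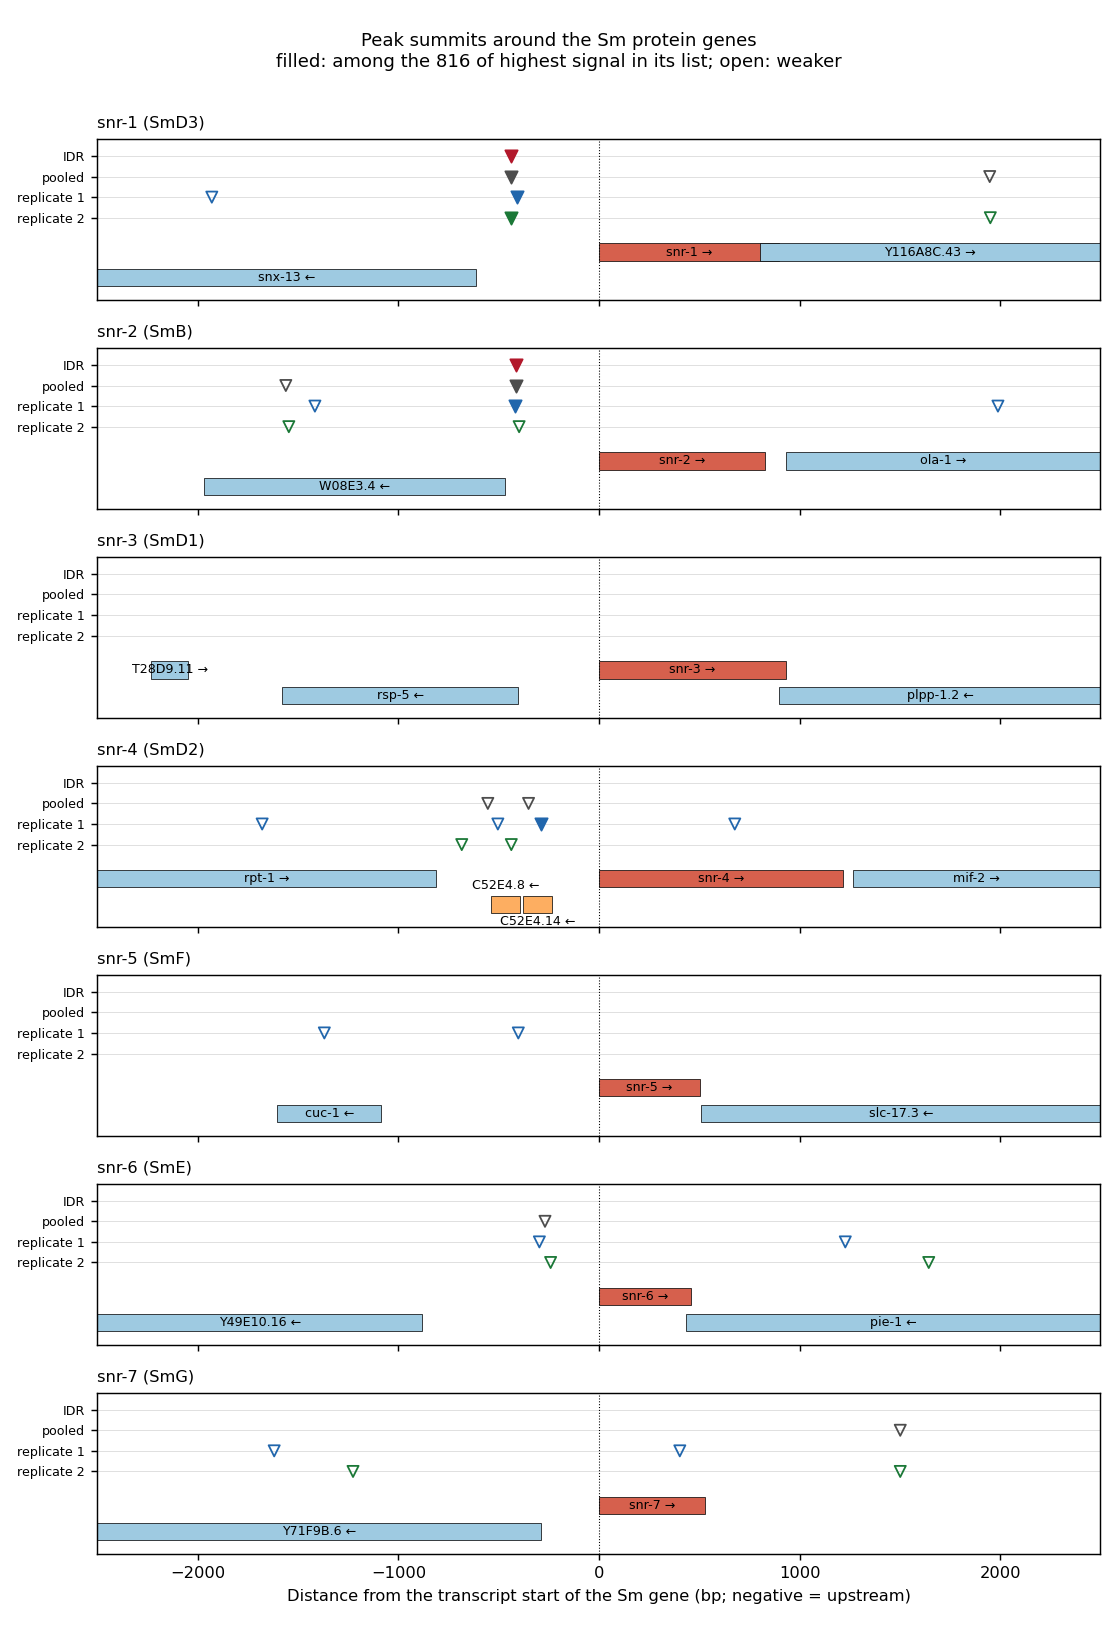
Summits within 2 kb of each Sm gene in the IDR list, the pooled list and the lists of replicates 1 and 2, by distance in bp from the gene's outermost transcript start, with upstream to the left. Bars show the Sm gene (red), its nearest protein-coding neighbours (blue) and, at snr-4, 2 non-coding RNA genes (orange), with arrows for the direction of transcription relative to the page. Filled triangles are among the 816 of highest signal in their list. The snr-1 panel has a filled triangle in all 4 lists, and the snr-3 panel has no triangle.

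The sequences under the summits are shown first, since they place each peak between its neighbouring genes. Each is a 201-base window of the ce11 build from the genome sequence, with the pooled summit in the middle. The window at snr-1 is chrIV:17087513-17087713 and that at snr-4 is chrV:11979974-11980174, both on the plus strand. For snr-3, which had no summit, the middle of the gap to its upstream neighbour is shown for comparison, chrII:6489863-6490063 on the minus strand. Capitals mark matches to the patterns searched, except at snr-4, where they mark the first 57 bases of the snRNA gene C52E4.8.
snr-1: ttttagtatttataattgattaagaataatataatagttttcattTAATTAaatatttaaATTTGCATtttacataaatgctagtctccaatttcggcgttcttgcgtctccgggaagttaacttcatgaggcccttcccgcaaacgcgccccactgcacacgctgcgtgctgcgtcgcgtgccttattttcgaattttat
snr-4: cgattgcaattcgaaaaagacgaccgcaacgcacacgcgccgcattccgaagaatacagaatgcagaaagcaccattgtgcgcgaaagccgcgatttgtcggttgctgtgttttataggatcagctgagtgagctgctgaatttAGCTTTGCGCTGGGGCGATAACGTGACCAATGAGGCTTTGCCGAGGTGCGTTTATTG
snr-3 gap: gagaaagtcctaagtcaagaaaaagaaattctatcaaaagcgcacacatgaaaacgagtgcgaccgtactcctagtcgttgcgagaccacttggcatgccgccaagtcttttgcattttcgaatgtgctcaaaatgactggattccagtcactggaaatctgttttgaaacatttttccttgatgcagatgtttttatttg

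The capitals in the snr-1 window are an octamer, ATGCAAAT read on the minus strand, centred 37 bp before the summit, and the homeodomain core TAATTA 53 bp before it. Octamers are bound by several POU proteins, and the core is bound by many homeodomain proteins. The windows searched were those at the strongest pooled summits of snr-1, snr-2, snr-4 and snr-7. The octamer was in 1 of these 4, while 9 of all 816 IDR windows and 1.74% of all pooled windows held it. The homeodomain core was also in 1 of the 4, against 6.37% of IDR windows and 9.25% of pooled windows. An E box (CAGCTG or CACCTG or CACGTG) was in the snr-4 window, 23 bp from the summit and outside the snRNA gene. Such a box was in 11.9% of IDR windows and 10.4% of pooled windows. None of the 4 windows held the GAGA repeat (GAGAGA), found in 29.4% of IDR windows and 15.6% of pooled windows. Likewise none held the POU class IV site (ATAATTAAT or ATTATTAAT), in 9 IDR windows and 1.71% of pooled windows. The POU subsite of the mec-3 type (AATGCAT), in 35 IDR windows and 3.15% of pooled windows, was also absent. So was the GATA site (AGATAA), in 49 IDR windows and 9.32% of pooled windows. Matches were counted on either strand and patterns were searched separately, so a base can belong to more than 1 match. A match describes the letters of a window, and binding to them was not tested.

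In promoter windows, from 250 bases before to 50 bases after the gene's start, few of these patterns were found. Of the 6 Sm promoters searched, all but that of snr-6, 1 held a POU class IV site (snr-7), against 3.06% of all protein-coding promoters, and the same promoter held the homeodomain core, against 15.5% of all. The GATA site was in 1, that of snr-7, against 21.2%, and the GAGA repeat in 1, that of snr-4, against 21.8%. None held the octamer, the mec-3 type subsite or an E box. The pooled summits upstream of snr-1, snr-2 and snr-4 lay farther upstream than these windows reach.

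The gene snr-1 (WBGene00004914) encodes SmD3, which pairs with SmB, and lies at chrIV:17088049-17088946 on the plus strand. Its IDR peak, at chrIV:17087535-17087742, had a signal of 271 and ranked 22 of 816 in the IDR list and 22 of 12784 in the pooled list. Both lists give the peak the same signal, so these ranks are not separate readings. Signal is the value given to each peak by the authors' peak caller. Its scale differs between the replicate lists and those made from both replicates. The replicate lists had the same peak with a signal of 146 and rank 20 of 17498 in replicate 1, and a signal of 128 and rank 27 of 18470 in replicate 2. Both replicates thus placed it close to the top of their lists, and their summits were 27 bp apart. The summit was 436 bp upstream of the snr-1 start, between protein-coding genes.

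The snr-1 peak is shared with a neighbour. The sorting nexin gene snx-13 is transcribed away from snr-1, and the gap between them is 610 bp. The summit was 175 bp from the start of snx-13, which is therefore the nearest start, and a start of Y116A8C.43, the next gene downstream of snr-1, was also within 2 kb. No small RNA gene of the classes searched was annotated within 300 bp, and piRNA genes were not among those classes. None of the 30-base stretches of the window occurred elsewhere in the genome. Its GC content was 37.3%, where the median IDR window had 44.3%. The other summits within 2 kb of snr-1 were weak: an entry in an exon of Y116A8C.43 had a signal of 29.2 and rank 8523 in the pooled list, and an intronic entry in snx-13 had a signal of 16.7 and rank 8341 in replicate 1.

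The protein-coding genes whose IDR peaks were most like that of snr-1 in the 2 replicates were atx-2 and cye-1, by the sum of absolute log2 differences in signal. The peak of atx-2, the ataxin-2 homolog, had a signal of 146 in replicate 1 and 139 in replicate 2, at a sum of 0.12. The peak of cye-1, which encodes cyclin E, had 136 and 130, at a sum of 0.13, with its summit 993 bp from the cye-1 start. Only peaks with a protein-coding start within 2 kb were compared. The IDR peak at chrIV:11026057-11026290, left out by this rule, had signals closer to those of the snr-1 peak, 151 and 125. The likeness rests on 2 libraries and describes peak height only.

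The partner gene snr-2 (WBGene00004915) encodes SmB and lies at chrI:13339397-13340224 on the plus strand. Its peak, at chrI:13338762-13339201, was in the IDR list with a signal of 69.2 and rank 716 of 816, near the lower end of that list, where the lowest signal was 64.7. In replicate 1 it had a signal of 41.0 and rank 588, and in replicate 2 a signal of 25.3 and rank 2195. The replicates therefore differed in its rank by more than in that of the snr-1 peak. The authors' −log10 q value was 3.09 in replicate 1 and 0.38 in replicate 2. Its summit was 415 bp upstream of the snr-2 start.

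This peak, too, lies in a divergent gap. The gene W08E3.4 is transcribed away from snr-2 at a distance of 465 bp, and the summit was 51 bp from its start. The start of ola-1, which encodes an Obg-like ATPase and follows snr-2 on the same strand after 102 bp, was also within 2 kb. The remaining entries within 2 kb of snr-2 were weak, at rank 6110 or lower in any list.

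Assigned to the nearest protein-coding start alone, neither IDR summit belonged to an Sm gene, so the count was 0 of 7, against 3.23% of all genes. Sharing is common in this compact genome: 392 of the 816 IDR summits (48.0%) had starts of 2 or more protein-coding genes within 2 kb. Of the 7 Sm genes, 6 had a divergent upstream neighbour at most 1.1 kb away, an arrangement found in 18.6% of all protein-coding genes. The widest of these gaps, at snr-5, was 1084 bp, just under the limit, so the count of 6 depends on where the limit was set. Among the genes with this arrangement, 2 of the 6 Sm genes and 11.9% of all 3712 genes had an IDR summit within 2 kb. The peaks do not tell which gene of a pair they belong to. Both IDR summits were upstream, as were the nearest summits of 83.5% of the 1128 genes with an IDR summit, and their distances of 436 and 415 bp were close to the median of 404 bp over those genes (interquartile range 186 to 1072).

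The SmD1 and SmD2 genes had no IDR peak. The gene snr-4 (WBGene00004917, chrV:11978508-11979723, minus strand) encodes SmD2, and its strongest pooled summit fell just outside the IDR list. It had a signal of 62.8 and rank 881, where the IDR list ended at 64.7. In replicate 1 the matching summit had a signal of 37.5 and rank 715, and in replicate 2 a signal of 28.2 and rank 1476. The 2 replicate summits were 61 and 86 bp from the pooled one, on opposite sides of it. The pooled summit was 351 bp upstream of the snr-4 start, which is the nearest protein-coding start. The start of mif-2, the next gene downstream of snr-4, was also within 2 kb of the pooled summit, at 1615 bp. The proteasome ATPase gene rpt-1 lies upstream of snr-4 on the same strand across a gap of 810 bp. Its start was more than 2 kb from the pooled summit.

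The snr-4 peak lies beside an snRNA gene. C52E4.8, annotated as an snRNA gene of 144 bp on the plus strand (chrV:11980118-11980261), stands in the gap between snr-4 and rpt-1, together with the non-coding RNA gene C52E4.14 (chrV:11979959-11980101). The pooled summit was 44 bp upstream of the 5′ end of C52E4.8 and inside C52E4.14. The replicate 1 summit was 105 bp upstream of that 5′ end, and the replicate 2 summit was 42 bp inside the gene. A second pooled summit, of signal 38.3 and rank 3231, was 16 bp past its 3′ end. Each replicate also had a second summit here. That of replicate 1 was 109 bp inside C52E4.8, with a signal of 24.2 and rank 2306. That of replicate 2 was 146 bp past the 3′ end, with a signal of 18.4 and rank 7442. Both replicates thus had a summit inside the snRNA gene. Which of the genes the peak belongs to was not tested.

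The snRNA sequence has an identical copy, which gives a comparison at the same locus type. The 144 bases of C52E4.8 occur 2 times in the genome, the other copy being T11F9.15 at chrV:11478148-11478291. The pooled summit nearest to the 5′ end of T11F9.15 was 5211 bp from that end, with a signal of 27.9 and rank 9805. In replicate 1 the nearest summit was 1532 bp from the 5′ end, with a signal of 16.1 and rank 9385. In replicate 2 it was 227 bp from the 5′ end and 84 bp past the 3′ end, with a signal of 15.3 and rank 13431. Replicate 2 thus had an entry close to either copy, and the entry at T11F9.15 had the lower signal and rank. All 30-base stretches of the gene itself occur more than once in the genome, while in the snr-4 window 32 of 172 do (18.6%). Neither the labels nor the file headers say how reads that map to several places were treated, and the part of the repeat in the snr-4 peak was not tested.

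The gene snr-3 (WBGene00004916, chrII:6488830-6489761, minus strand) encodes SmD1 and had no summit within 2 kb of either of its 2 transcript starts, in any of the 4 lists. The other 6 Sm genes each had a summit in at least 1 list. The share of all genes with a summit in at least 1 list was not computed, so this count has no comparison. The entries nearest to it lay just past the limit, 2170 bp downstream in the pooled list (signal 35.5, rank 4209) and in replicate 2 (signal 14.9, rank 14421), and 2103 bp downstream in replicate 1 (signal 20.4, rank 4116). The nearest IDR summit was 99.3 kb away. Like snr-1 and snr-2 it has a divergent neighbour, the SR protein gene rsp-5, across a gap of 403 bp. The arrangement was thus present at snr-3 without a listed summit in the gap.

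The genes of SmE, SmF and SmG had no IDR peak either. The gene snr-6 (WBGene00004919, chrIII:12429172-12429629, minus strand) encodes SmE, and its pooled summit, 269 bp upstream of the start, had a signal of 47.4 and rank 1684. In replicate 1 the peak had a signal of 20.2 and rank 4318, and in replicate 2 a signal of 27.8 and rank 1563. Its rank was the higher in replicate 2, the reverse of snr-2 and snr-4. The authors' −log10 q value was 0.66 in the pooled list, 0.25 in replicate 1 and 0.59 in replicate 2. The summit lay between snr-6 and the divergent gene Y49E10.16, which starts 611 bp from it, and snr-6 has the nearest start. On its other side snr-6 overlaps pie-1, which encodes a zinc finger protein that represses transcription in the germline precursors, by 24 bp. No small RNA gene of the classes searched, which leave out piRNA genes, was annotated within 300 bp of the summit.

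The gene snr-5 (WBGene00004918, chrIII:7862070-7862574, plus strand) encodes SmF. No summit was within 2 kb of it in the IDR list, the pooled list or the list of replicate 2. Replicate 1 had an entry 402 bp upstream with a signal of 16.5 and rank 8629, and another of signal 14.4 and rank 13236 in an exon of cuc-1, a copper chaperone gene. The median signal of the replicate 1 list was 16.5. The nearest pooled summit was 6.24 kb away.

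The gene snr-7 (WBGene00004920, chrI:2727014-2727545, plus strand) encodes SmG. Its pooled summit was 1502 bp downstream of the start, between snr-7 and yop-1, with a signal of 27.8 and rank 9891 of 12784. The nearest start to this summit was that of yop-1, at 1488 bp, and a start of Y71F9B.6 was also within 2 kb. Replicate 2 had that summit with a signal of 24.7 and rank 2386, and replicate 1 had no summit within 100 bp of it. Replicate 1 instead had an entry 403 bp downstream of the start, in the 3′ untranslated region of snr-7, with a signal of 18.5 and rank 5856. The gap of 289 bp to the divergent gene Y71F9B.6 held no summit in any list.

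**Figure D2:**
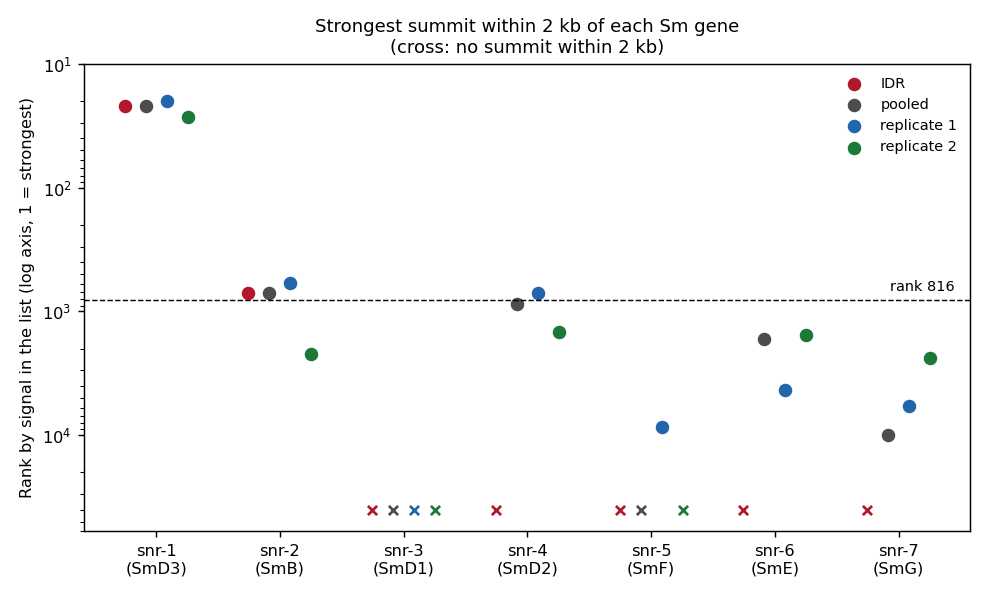
Rank by signal of the strongest summit within 2 kb of each Sm gene, on a log axis with the strongest at the top, in the IDR list (red), the pooled list (grey), replicate 1 (blue) and replicate 2 (green). Crosses mark genes with no summit within 2 kb in that list, and the dashed line is rank 816, the length of the IDR list. Only the points of snr-1 lie above the line in all 4 lists.

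The replicates were compared for the same genes without the IDR list. Among the 816 peaks of highest signal in each replicate, snr-1 was the 1 Sm gene of 7 with a summit within 2 kb in both, against 3.72% of all protein-coding genes. Replicate 1 taken by itself added snr-2 and snr-4, and replicate 2 added none. The share of all genes is given for both replicates together only, so these additions have no comparison beside them. The 4 peaks found in both replicates within 100 bp of the pooled summit, at snr-1, snr-2, snr-4 and snr-6, had their replicate summits within 147 bp of each other. The 100 bp rule limits this distance in advance, so it does not measure agreement. Of the 816 IDR peaks, 767 had such a match in both replicates. With 2 libraries and no read counts, no error can be attached to a single signal, and the depth is unknown.

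**Figure D3:**
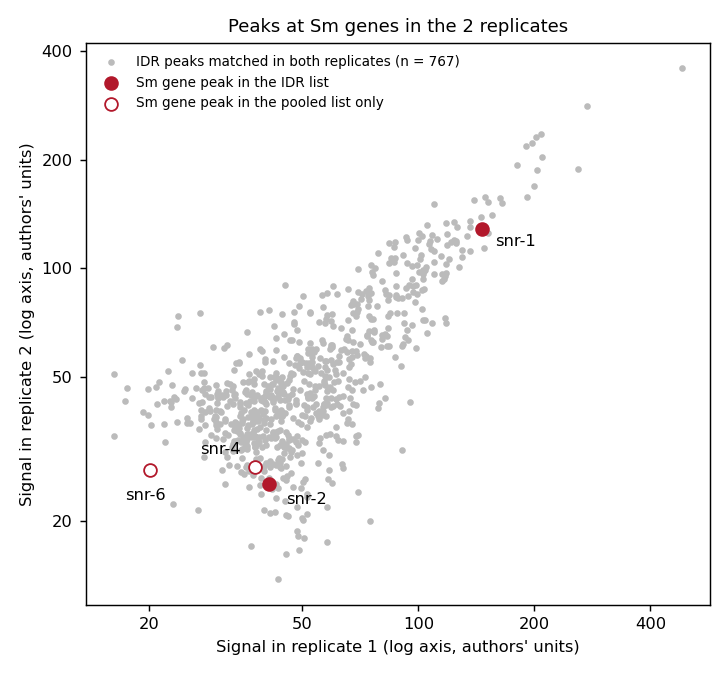
Signal in replicate 1 against replicate 2, both on log axes in the authors' units, for the 767 IDR peaks matched in both replicates (grey) and for the strongest peaks at snr-1 and snr-2 (filled red, in the IDR list) and at snr-4 and snr-6 (open red, in the pooled list only). The snr-1 point, at 146 and 128, lies in the upper part of the cloud, snr-2 and snr-4 lie in its lower part, and snr-6 lies to the left of most of it.

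Other genes of the splicing machinery gave a range of counts around that of the Sm genes. The lists were Like-Sm (LSm) proteins, most of which form the related ring on U6, and proteins that assemble the Sm ring. The others were snRNP and splice site proteins, trans-splicing factors, and SR proteins, which bind exons and promote splicing. An IDR summit within 2 kb was found for 1 of 8 LSm genes, 0 of 4 assembly genes, 1 of 19 snRNP and splice site genes, 0 of 3 trans-splicing genes and 5 of 8 SR genes. All 42 listed symbols matched the annotation. The share of all genes was the 5.65% given above, and the differences between lists were not tested.

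Of the LSm genes the 1 with an IDR summit was lsm-3, 983 bp upstream of its start with a signal of 96.0 and rank 366, and the nearest start was that of Y62E10A.23. Of the snRNP and splice site genes it was prp-19, which encodes a ubiquitin ligase of the spliceosome, with a signal of 139 and rank 173. The nearest start to that summit was K10D2.5. Among the SR genes, rsp-6 had the strongest peak (signal 103, rank 312), 192 bp upstream of its start. The adjacent genes rsp-1 and rsp-2 shared a peak (signal 73.5, rank 622), and rsp-4 (signal 85.0, rank 463) and rsp-3 (signal 68.0, rank 742) had summits whose nearest start was that of another gene. No peak at these genes ranked as high as that of snr-1. Of the 4 genes that assemble the Sm ring, 3 had entries in the pooled list that were not in the IDR list. A pooled summit was found for 40.7% of all genes. It was also found for 4 of 8 LSm, 9 of 19 snRNP and splice site, 3 of 3 trans-splicing and 8 of 8 SR genes. The entry of icln-1, whose product binds Sm proteins before assembly, had a signal of 45.4 and rank 1864, with znf-706 as the nearest start and a match in replicate 1 only, at rank 1079. The SMN gene smn-1 had a summit 49 bp upstream of its start (signal 43.0, rank 2200), with a match in replicate 2 only, at rank 4784. The microRNA gene mir-4932 was annotated within 300 bp of that summit, and its part in the entry was not tested. The entry of smi-1, which encodes the partner of SMN, had a signal of 41.2 and rank 2526, with matches in both replicates at ranks 4582 and 6278.

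**Figure D4:**
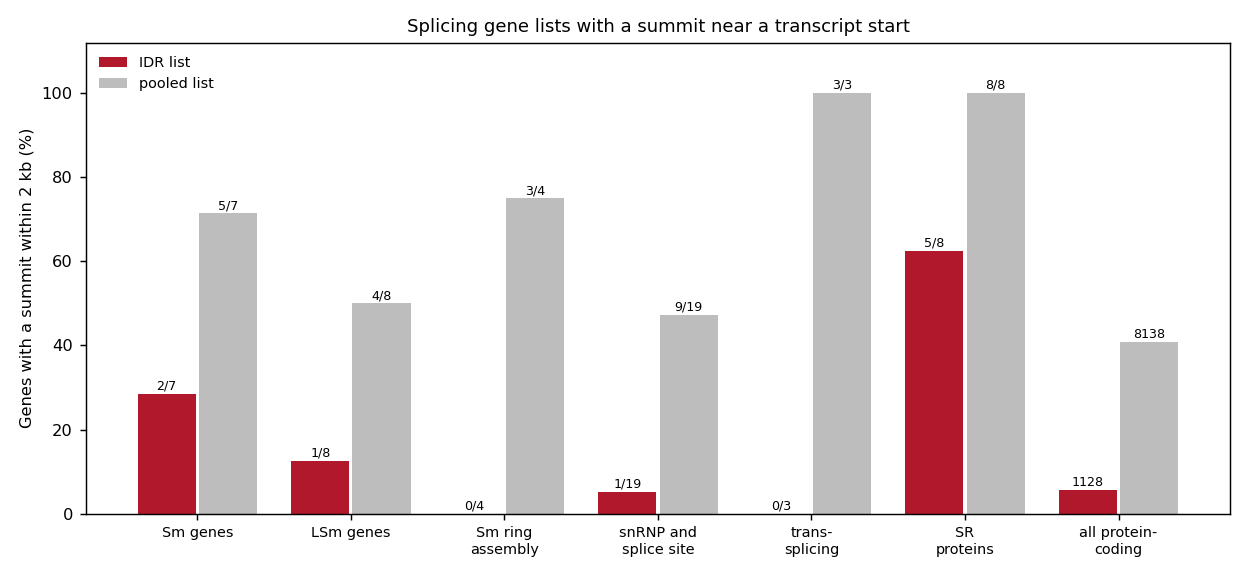
Share of genes in each splicing list, in percent, with a summit within 2 kb of a transcript start in the IDR list (red) and in the pooled list (grey), with the count over each bar (for all protein-coding genes, the number of 19973) and all protein-coding genes at the right. The Sm genes stand at 2 of 7 and 5 of 7, the SR protein genes at 5 of 8 and 8 of 8, and all protein-coding genes at 1128 and 8138 of 19973.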

How the data were processed

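Peaks of UNC-86 ChIP-seq in 2 biological replicates were taken as deposited in the ce11 build. Per the file headers, each replicate's list holds peaks and background regions called on its alignments with a control, the pooled list is the same for both replicates together, and the IDR list was derived from these 3. Neither headers nor labels name the aligner, the peak caller, the IDR cut-off or read numbers. Depth is therefore unknown, and no counting intervals could be given. The signal values and the −log10 q values per peak are the authors', as deposited. Signal was used to rank peaks within a list, and lists of different length or scale were set side by side by rank only. The ce10 lists were not used.

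Summits (1-based) were assigned to any transcript start of the Ensembl release 115 annotation (WBcel235, ce11 coordinates) within 2 kb. Non-coding genes carry their RefSeq names, because the Ensembl file gives C52E4.8 and T11F9.15 the same one. A replicate summit within 100 bp of a pooled or IDR summit counted as the same peak. Small RNA genes were those annotated as tRNA, snoRNA, snRNA, microRNA, ncRNA, rRNA, lincRNA or antisense, and piRNA genes were not searched. The strongest peaks of a replicate were its 816 of highest signal. The assignment and the pattern search found all planted summits and patterns when tested on simulated data. Sequences were read from the RefSeq genome of WBcel235. The sequence at snr-6 is not reported here. No test was made: there is 1 group, and members are not replicates. Counts are given beside those over all protein-coding genes, except those from the strongest peaks of a single replicate and from alternative settings.

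The members and lists were chosen with earlier results of these data known. The comparison of genes with divergent neighbours, the identical snRNA copy and the setting without small RNA genes were added after the values were seen. Named are all members, the genes that share their peaks, up to 4 genes of each other list by IDR signal, and the 2 most alike; rsp-3, icln-1, smn-1 and smi-1 were added after their values were seen. Alternatives changed the distance, the starts, the list and the windows. Computations used Python 3.11.15, numpy 2.4.6, pandas 2.3.3 and matplotlib 3.10.9.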

Additional observations from a re-analysis of the deposited data

How the results depend on the processing

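Of 50 alternative values computed, 37 were equal to or within 1.5 times the value reported. Some of the values were 0 at both settings and others came from lists of different scale, so this tally does not measure robustness. The 2 Sm genes with an IDR summit were also 2 within 1 kb, within 500 bp, from the outermost start alone and by overlap of the interval, and 1 among the 408 strongest IDR peaks (snr-1). With the strongest peaks of a single replicate they were between 1 (without replicate 1) and 3 (without replicate 2), and the Sm genes with the nearest start were between 0 and 1 (snr-4). The 5 Sm genes with a pooled summit became 3 at a q value under 0.05 (snr-1, snr-2 and snr-4). With 2 times as many strongest peaks per replicate, 2 Sm genes instead of 1 had a summit in both. The shares of all genes at these alternative settings are not given, so the counts show only how the choice of setting moves them. Of the 7 other splicing genes with an IDR summit, 4 remained within 500 bp, all SR genes, and 3 among the 408 strongest IDR peaks. With the strongest peaks of replicate 1 alone the count was again 7, but with prp-8, rnp-7 and rsp-5 in place of rsp-1, rsp-2 and rsp-3. With those of replicate 2 alone it was 5. In windows of 50 bp to each side, 0 Sm windows instead of 1 held the homeodomain core, and with 150 bp to each side 1 (snr-4) instead of 0 held the GAGA repeat.

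The signal of the snr-1 peak, 271 in the IDR list, was 128 without replicate 1 and 146 without replicate 2, and that of snr-2, 69.2, was 25.3 and 41.0; the lists have different scales. Leaving out summits within 300 bp of a small RNA gene, a setting added after the data were seen, left 2 Sm genes in the IDR list and 4 in the pooled list, without snr-4. Weak peaks cannot be judged at an unknown depth. No paired analysis was possible because there is 1 group.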
